A study of Mus musculus with 29 samples.

Results

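The genes of voltage-gated ion channels and of the channel families named with them were taken from the RNA count tables of embryonic mouse brain. A gene was included when its symbol began with Kcn and a subfamily letter and number (potassium channels), Scn and a number with a or b (sodium channels), or Cacn with a, b, g, 1 or 2 (calcium channels). The rule found 133 of the 25239 genes listed, and it left out 4 transcripts whose names hold os or ot (Kcnd3os, Kcnmb4os1, Kcnmb4os2 and Kcnq1ot1). The rule used names only, so it also took in channels that open without a voltage sensor, such as the inward rectifier and two-pore-domain potassium channels. All 8 libraries were poly(A) RNA from E11.5 mouse embryos (mid-gestation). Midbrain was taken from wild-type and from hs654 knockout embryos, and forebrain from wild-type and from hs267-853 knockout embryos, with 2 libraries in each of the 4 groups. The knockouts are named for enhancers, which are non-coding regulatory elements, so no gene count checks the deletions themselves. Each knockout was sequenced in 1 tissue only, and the labels give neither the strain nor whether embryos carried 1 or both deleted copies. Each library pooled tissue of several embryos of 1 genotype, so the p-values measure the spread between such pools. The other 21 samples of the series, enhancer-capture Hi-C, were not analysed here.

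Voltage-gated channels open when the membrane depolarizes. Sodium channels (Nav) carry the upstroke of the action potential, potassium channels (Kv) end it and set the firing pattern, and calcium channels (Cav) turn it into calcium entry and transmitter release. The pores of all these channels are formed by alpha subunits, and auxiliary subunits set their gating and their number at the surface. At this stage the brain wall is still rich in dividing progenitors, and the first neurons are being born.

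The libraries held 9051632 to 18024406 gene counts, and each library held counts of 115 to 125 of the 133 channel genes. Levels are given as CPM, the gene's counts relative to a library total scaled by edgeR's TMM factor, and are not adjusted for gene length, so they are compared between groups and not between genes. A count of 0 in 1 library allows up to 3 counts, or 0.17 to 0.328 CPM, which covers counting error only. The tissue labels were checked against marker genes: 9 of 9 forebrain markers tested were higher in wild-type forebrain, and 9 of 9 midbrain and hindbrain markers tested were lower. On the second principal component of all genes, forebrain knockout replicate 1 stood apart from the other 7 libraries.

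Most channel genes were present at low levels. In the group where they were highest, 12 channel genes reached at least 50 CPM, 24 reached 10 to 50 CPM, 57 reached 1 to 10 CPM, and 38 had counts but stayed under 1 CPM. The other 2, Kcna10 (a Kv alpha subunit) and Kcnj1 (an inward rectifier known from kidney), had no count in any library. After the filter on low counts 97 genes remained for testing, and among the 36 left out the highest value in any library was 1.27 CPM. Tested genes were 29 of 40 Kv alpha subunits, 9 of 12 Kv auxiliary subunits, 9 of 12 calcium- and sodium-activated potassium channels, 10 of 15 inward rectifiers, 7 of 14 two-pore-domain channels, 8 of 10 Nav alpha subunits, 4 of 4 Nav beta subunits, 8 of 10 Cav alpha1 subunits and 13 of 16 Cav auxiliary subunits.

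Summed over all 133 genes, channel transcripts took a larger share of midbrain than of forebrain libraries. The sum was 1667.8 and 1626.3 CPM in wild-type midbrain and 1144.8 and 1069.8 CPM in wild-type forebrain. It was 1739.1 and 1782.1 CPM in knockout midbrain and 1125.1 and 1102.3 CPM in knockout forebrain. Every midbrain library was above every forebrain library. By family, Kv alpha subunits summed to 327.36 and 324.21 CPM in wild-type midbrain against 169.61 and 159.51 CPM in wild-type forebrain, and Nav alpha subunits to 208.05 and 191.86 CPM against 117.48 and 116.63 CPM. Inward rectifiers were the only 1 of the 9 families with the higher sums in wild-type forebrain, at 27.487 and 29.333 CPM against 23.152 and 21.646 CPM in wild-type midbrain. In the knockout libraries the inward rectifier sums overlapped, at 25.59 and 29.011 CPM in forebrain against 22.198 and 29.384 CPM in midbrain.

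The first comparison set wild-type forebrain against wild-type midbrain. Of the 97 channel genes tested, 56 (57.7%) were called, meaning an adjusted p under 0.05 by the quasi-likelihood test of edgeR, against 29.6% of all 15383 genes tested. In forebrain, 13 were higher, against 14.3% of all genes, and 43 were lower, against 15.3% of all genes. The median log2 fold change was -0.64 over the channel genes and 0.00 over all genes (0.0012). Setting Kcnk9, which had no count in wild-type forebrain, to its bound could not move the channel median, because Kcnk9 stays below it. In 76 of the 97 genes (78.4%) the 2 forebrain libraries did not overlap the 2 midbrain libraries, against 65.9% of all genes tested. Fewer channel genes were called higher in forebrain when any single wild-type library was left out. Such a fit has less power in all genes, so this drop is not shown to be particular to channel genes. The count of genes lower in forebrain stayed between 37 and 49 when each of the 8 libraries was left out in turn.

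General neuron markers were also lower in forebrain, 13 of 14 tested in wild type, with a median log2 fold change of -0.98 and a range of -1.99 to -0.22. Their summed level was 3967 to 4504 CPM in the 4 midbrain libraries and 1787 to 2523 CPM in the 4 forebrain libraries, and none of the 14 was at 0. In such bulk samples, fewer neurons and less channel RNA per neuron cannot be told apart, and the part of neuron number in the channel differences was not tested. Of the 43 channel genes lower in forebrain, 31 fell by more than the median neuron marker, 12 fell by less, and 14 fell by more than every neuron marker in the list. These 43 were picked as called lower and the markers were not, so larger falls among them are partly fixed by that choice. Over all 97 channel genes tested the median log2 fold change was -0.64, a smaller fall than the -0.98 of the markers. Of 10 progenitor markers, 4 were higher and 4 lower. Among macrophage markers 5 of 8 were lower in forebrain, with sums of 83.9 to 100.3 CPM in midbrain and 45.6 to 64.5 CPM in forebrain.

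**Figure D1:**
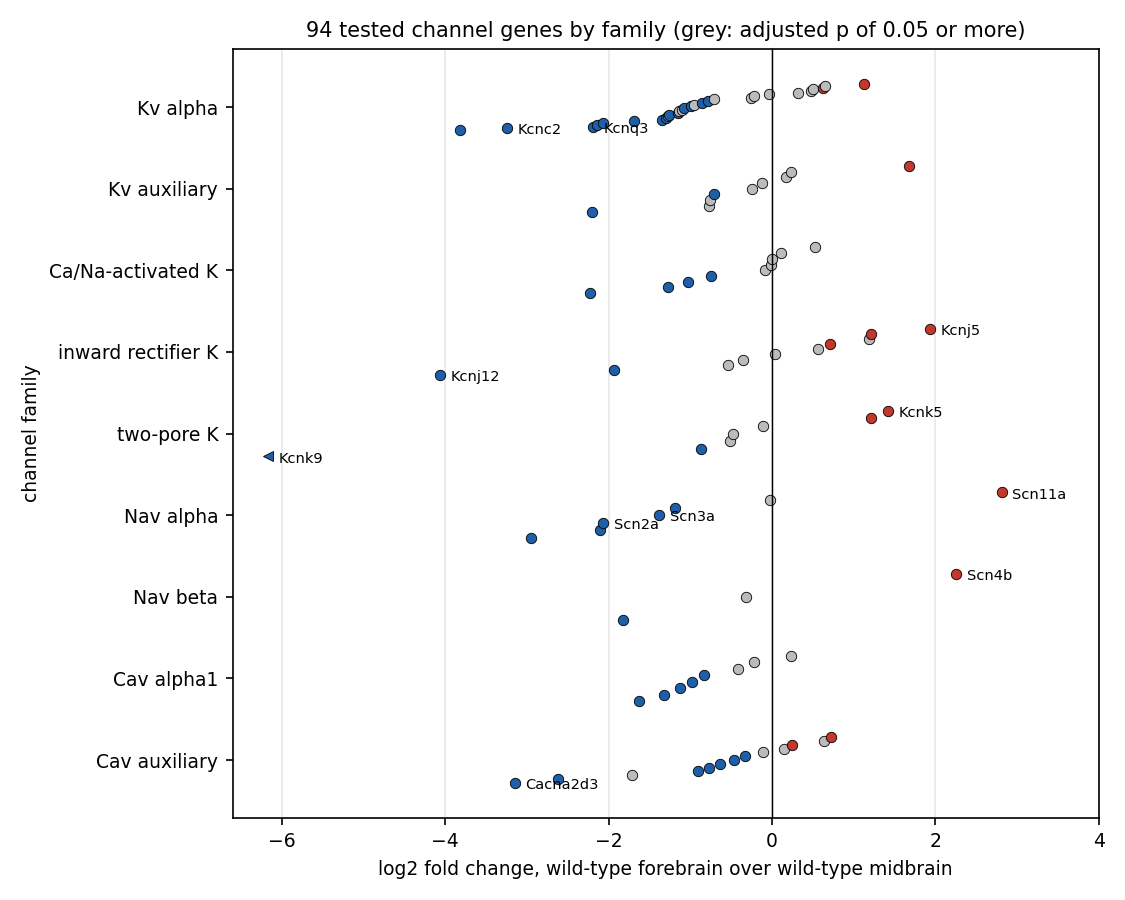
Each point is 1 of 94 of the 97 channel genes tested, placed by its log2 fold change in wild-type forebrain over wild-type midbrain (horizontal axis) and by its family (vertical axis). Red points passed the test as higher in forebrain, blue points as lower and grey points did not pass; the triangle marks Kcnk9, which had no count in wild-type forebrain and is drawn at its bound. Each of the 9 families has at least 1 blue point on the left, and Scn11a lies on the right as a red point at 2.82.

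Nav alpha subunits split in both directions. Of 8 tested, 2 rose in forebrain, 5 fell, and Scn1a, a subunit known from inhibitory neurons, did not pass the test. That is 87.5% called, against 29.6% of all genes. Scn11a, a channel known from pain-sensing neurons, was at 7.33 and 5.50 CPM in forebrain and at 1.27 and 0.479 CPM in midbrain. Both forebrain libraries lay above both midbrain libraries, a 7.35-fold ratio of means (log2 fold change 2.82, SE 0.40, adjusted p = 0.000192, edgeR's quasi-likelihood test). Without midbrain wild-type replicate 1 the log2 fold change was 3.71. The 9 skeletal muscle markers summed to 3.80 to 7.43 CPM in any library, and the 3 tested did not pass the test, at a median log2 fold change of -0.69.

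The 5 Nav alpha subunits lower in forebrain include Scn2a, Scn3a and Scn8a, known as brain subunits. Scn3a, the subunit with the highest CPM and known from immature neurons, was at 104 and 93.4 CPM in wild-type midbrain and at 38.3 and 37.5 CPM in wild-type forebrain (log2 fold change -1.38, SE 0.08, adjusted p = 4.03e-08, edgeR). Its forebrain libraries were both low and close to each other. Scn2a, known from axons, was at 22.8 and 24.2 CPM in midbrain and 5.57 and 5.65 CPM in forebrain, a log2 fold change of -2.06 (SE 0.15, adjusted p = 3.15e-07, edgeR). Scn8a, known from the site where spikes start, was at 58.5 and 50.5 CPM against 22.0 and 26.2 CPM, a log2 fold change of -1.18. Scn9a, known from sensory neurons, was at 13.9 and 14.5 CPM against 3.26 and 3.33 CPM, a log2 fold change of -2.10. Scn7a, an atypical member linked to salt sensing, rested on few counts, 16 and 17 in midbrain against 4 and 0 in forebrain (log2 fold change -2.95, adjusted p = 0.017, edgeR). It did not pass without midbrain wild-type replicate 1 (adjusted p = 0.0519, edgeR), midbrain wild-type replicate 2 (0.087) or forebrain wild-type replicate 2 (0.123, with a log2 fold change of -2.08), and without forebrain wild-type replicate 1 no count is left in forebrain. Scn1a was at 5.76 and 4.95 CPM in midbrain and 5.84 and 4.72 CPM in forebrain, with overlapping groups and a log2 fold change of -0.02 (SE 0.22, adjusted p = 0.955, edgeR).

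**Figure D2:**
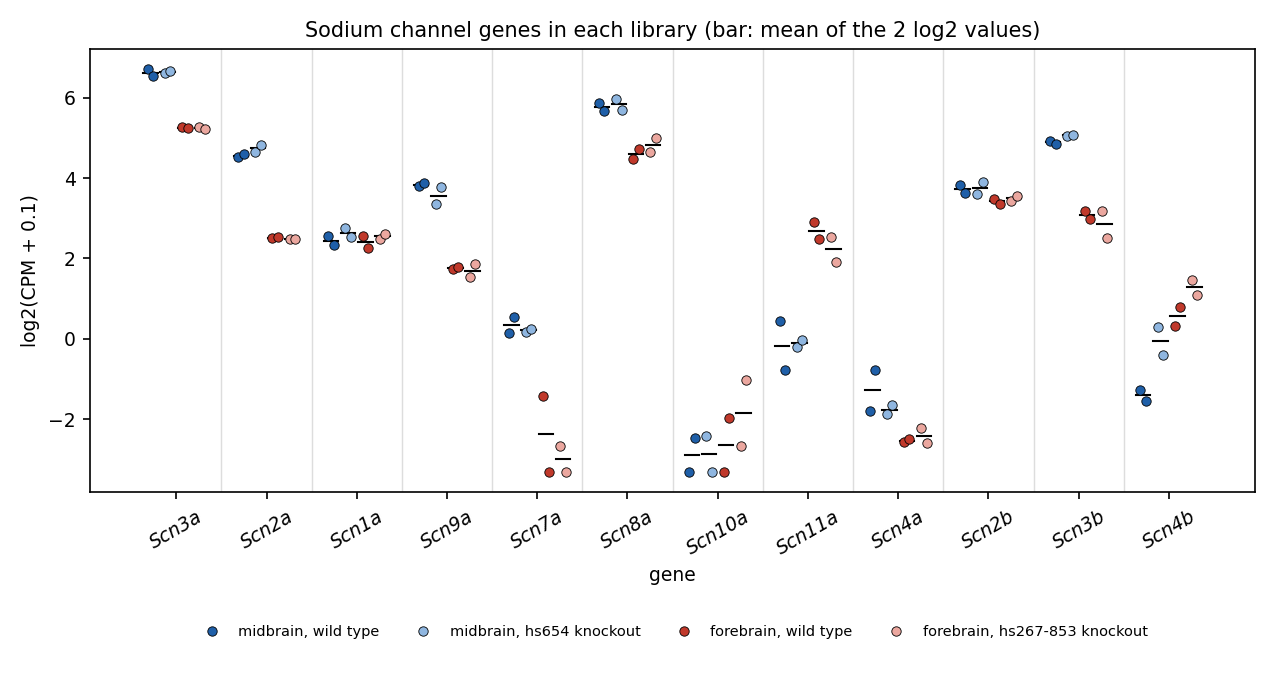
Level of 12 sodium channel subunit genes in each library, as log2(CPM + 0.1) on the vertical axis, with the 4 groups side by side for each gene on the horizontal axis; points are libraries and bars the mean of the 2 log2 values. Scn11a sits higher in the 4 forebrain libraries than in the 4 midbrain libraries, Scn2a, Scn3a and Scn9a sit lower, and Scn1a is level.

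Of the 4 Nav beta subunits, which adjust gating and act as adhesion molecules, Scn4b rose in forebrain and Scn3b fell. In this family of 4 genes the called share was 50%, against 29.6% of all genes. Scn3b, the family member with the highest CPM, was at 30.4 and 28.8 CPM in wild-type midbrain and 8.96 and 7.74 CPM in wild-type forebrain (log2 fold change -1.82, SE 0.17, adjusted p = 5.01e-06, edgeR). Scn4b was at 0.316 and 0.24 CPM in midbrain and 1.15 and 1.63 CPM in forebrain, without overlap (log2 fold change 2.26, SE 0.57, adjusted p = 0.00926, edgeR). With 8 midbrain counts in all, Scn4b did not pass without midbrain wild-type replicate 1 (adjusted p = 0.0541, edgeR), midbrain wild-type replicate 2 (0.0576) or forebrain wild-type replicate 2 (0.0648).

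Kv alpha subunits fell in forebrain in 15 of 29 genes tested, and 2 rose, with a family median log2 fold change of -1.08. Calls thus made up 58.6% of the family, against 29.6% of all genes. Kcna4 and Kcnc2 fell most among the Kv alpha genes named here. Kcna4, a subunit of fast-inactivating channels, was at 2.53 and 1.76 CPM in wild-type midbrain and 0.204 and 0.0774 CPM in wild-type forebrain, so that both forebrain libraries held only 3 and 1 counts (log2 fold change -3.82, SE 0.77, adjusted p = 0.00231, edgeR). The fold change of Kcna4 was -4.65 without forebrain wild-type replicate 1. Kcnc2, a subunit that allows fast firing, was at 9.87 and 7.99 CPM in midbrain against 0.882 and 1.01 CPM in forebrain, a 9.46-fold ratio without overlap (log2 fold change -3.24, SE 0.39, adjusted p = 4.38e-05, edgeR).

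The Kcnq genes include subunits of the M-current, which holds back repeated firing. Kcnq3 was at 22.1 and 22.1 CPM in wild-type midbrain and 4.75 and 4.95 CPM in wild-type forebrain (log2 fold change -2.19, SE 0.16, adjusted p = 5.1e-07, edgeR). Both forebrain libraries lay well below both midbrain libraries.

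The Kcna genes encode Shaker-type channels, many of them on axons. Kcna1 was at 5.82 and 6.47 CPM in midbrain against 1.02 and 1.78 CPM in forebrain (log2 fold change -2.14), Kcna2 at 6.71 and 6.55 CPM against 2.44 and 1.63 CPM (-1.69), and Kcna5 at 4.05 and 5.83 CPM against 1.09 and 1.24 CPM (-2.07). Kcna3, the Shaker-type channel known from lymphocytes, went the other way, at 6.33 and 7.27 CPM in midbrain and 9.57 and 11.3 CPM in forebrain (log2 fold change 0.62, SE 0.22, adjusted p = 0.0478, edgeR). That call did not pass without any 1 of the 4 wild-type libraries (adjusted p from 0.0724 to 0.24, edgeR), nor in DESeq2 (0.0969). Kcnf1, a subunit that forms no channel of its own and modifies others, rose from 2.02 and 2.48 CPM to 4.95 and 4.80 CPM (log2 fold change 1.12, SE 0.26, adjusted p = 0.00628, edgeR), but did not pass without midbrain wild-type replicate 1 (0.0703).

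Among Kv auxiliary subunits 1 of 9 rose and 2 fell. With 33.3% called, the family was close to the 29.6% of all genes. Kcnab1 and Kcnab2 encode beta subunits that bind inside the cell. Kcnab1 was at 5.57 and 4.39 CPM in wild-type midbrain against 1.22 and 0.929 CPM in wild-type forebrain, without overlap (log2 fold change -2.20, SE 0.33, adjusted p = 0.000269, edgeR). Kcnab2, the family member with the highest CPM, was at 22.6 and 26.8 CPM against 12.6 and 17.8 CPM (log2 fold change -0.70, adjusted p = 0.00452, edgeR), and did not pass without forebrain wild-type replicate 1 (0.058). Kcne3, a single-pass subunit known from epithelia, rose from 1.20 and 0.479 CPM to 2.38 and 3.25 CPM (log2 fold change 1.68, SE 0.46, adjusted p = 0.0151, edgeR). It did not pass without midbrain wild-type replicate 2 (0.111) or forebrain wild-type replicate 2 (0.103), and its fold change was 2.52 without midbrain wild-type replicate 1.

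Of 9 calcium- and sodium-activated potassium channel genes tested, 4 fell in forebrain and none rose, so 44.4% were called, against 29.6% of all genes. Kcnn1, a small-conductance channel that shapes the pause after a spike and the family member with the highest CPM, was at 48.5 and 47.0 CPM in wild-type midbrain against 31.0 and 25.6 CPM in wild-type forebrain (log2 fold change -0.75, SE 0.11, adjusted p = 0.000247, edgeR). Kcnmb2, an auxiliary subunit of the large-conductance BK channel, was at 3.42 and 2.32 CPM against 0.747 and 0.464 CPM (log2 fold change -2.22, SE 0.50, adjusted p = 0.00481, edgeR), and did not pass without midbrain wild-type replicate 1 (0.0547). The pore gene of the BK channel, Kcnma1, was lower by less, at a log2 fold change of -1.02 (SE 0.34), and the difference between the 2 was not tested.

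Inward rectifiers, which hold the resting potential, had 3 of 10 genes higher in wild-type forebrain and 2 lower, against 1 higher and 2 lower in the knockout libraries. The called share was 50% in wild type, against 29.6% of all genes, and 30% in the knockout libraries, against 29.4% of all genes. Kcnj2, the family member with the highest CPM and the main strong rectifier of heart and muscle, was at 5.44 and 2.96 CPM in wild-type midbrain and 10.1 and 9.67 CPM in wild-type forebrain (log2 fold change 1.21, SE 0.32, adjusted p = 0.011, edgeR). Kcnj5, a subunit of G-protein-gated channels, was at 0.443 and 1.20 CPM against 2.58 and 3.56 CPM (log2 fold change 1.94, SE 0.54, adjusted p = 0.0159, edgeR). Kcnj10, the channel known from glia, was at 3.54 and 4.31 CPM against 6.04 and 6.81 CPM (log2 fold change 0.71, SE 0.22, adjusted p = 0.0281, edgeR). In all 3 genes both forebrain libraries were the higher ones, and each call was lost when a library was left out. Without midbrain wild-type replicate 1 the adjusted p in edgeR was 0.163 for Kcnj5, with a log2 fold change of 1.34, and 0.197 for Kcnj10. Without midbrain wild-type replicate 2 it was 0.0924 for Kcnj2, and the log2 fold change of Kcnj5 was 2.77. Without forebrain wild-type replicate 1 it was 0.0576 for Kcnj2 and 0.0583 for Kcnj10, and without forebrain wild-type replicate 2 it was 0.103 for Kcnj5 and 0.136 for Kcnj10. DESeq2 gave 0.0966 for Kcnj10. Kcnj3, another subunit of G-protein-gated channels, was lower in forebrain, at 4.36 and 3.91 CPM in midbrain against 1.15 and 1.01 CPM (log2 fold change -1.93, SE 0.39, adjusted p = 0.00253, edgeR). Kcnj12, the second gene that fell, had 21 counts over wild-type midbrain and 1 over wild-type forebrain, a ratio of 20.5 with a counting interval of 3.3 to 848.

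The largest fall was in Kcnk9, a two-pore-domain channel that carries background potassium current. It had 112 and 107 counts in wild-type midbrain (7.08 and 8.55 CPM) and 0 and 0 in wild-type forebrain. Against 3 counts over the forebrain group it was at least 72.0-fold lower in forebrain (adjusted p = 1.65e-06, edgeR). Kcnk10, the family member with the highest CPM, also fell, from 57.7 and 51.0 CPM to 33.7 and 25.6 CPM (log2 fold change -0.87, SE 0.14, adjusted p = 0.000422, edgeR). Kcnk5, an acid-sensitive channel known from epithelia, rose from 12.0 and 9.35 CPM to 27.3 and 30.4 CPM, without overlap (log2 fold change 1.42, SE 0.15, adjusted p = 1.12e-05, edgeR). Kcnk1 rose from 3.35 and 2.56 CPM to 6.58 and 7.20 CPM (log2 fold change 1.21, SE 0.34, adjusted p = 0.0167, edgeR). Kcnk1 did not pass without midbrain wild-type replicate 2 (0.0988), forebrain wild-type replicate 1 (0.0532) or forebrain wild-type replicate 2 (0.0797). The family thus held 2 genes higher and 2 lower of 7 tested, or 57.1% called against 29.6% of all genes.

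**Figure D3:**
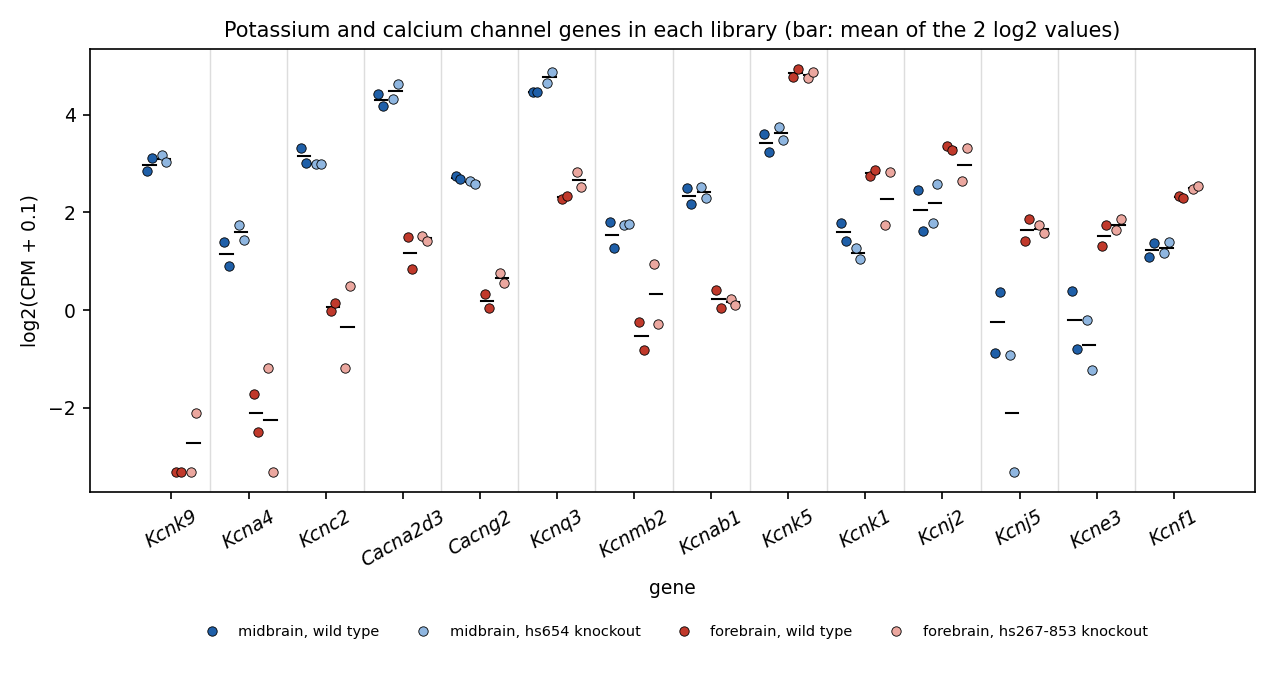
Level of potassium and calcium channel genes in each library, as log2(CPM + 0.1) on the vertical axis, for the 4 groups of each gene on the horizontal axis; points are libraries and bars the mean of the 2 log2 values. Kcnk9 is at 0 CPM in 3 of 4 forebrain libraries, and Kcna4, Kcnc2 and Cacna2d3 are low in all 4, while Kcnk5 is higher there.

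Cav alpha1 subunits, the calcium pores, had 5 of 8 genes (62.5%) lower in forebrain and none higher, where 29.6% of all genes were called. The fallers include the 3 pores of presynaptic calcium entry. Cacna1b (N-type) was at 44.2 and 38.4 CPM in wild-type midbrain against 14.9 and 11.8 CPM in wild-type forebrain (log2 fold change -1.62, SE 0.14, adjusted p = 1.6e-06, edgeR). Cacna1a (P/Q-type) was at 30.5 and 28.7 CPM against 13.4 and 13.7 CPM (log2 fold change -1.13, SE 0.11), and Cacna1e (R-type) at 24.1 and 19.6 CPM against 8.82 and 8.67 CPM (log2 fold change -1.33, SE 0.16). Of the T-type genes, whose channels open at low voltage, Cacna1h was at 62.9 and 65.0 CPM against 36.5 and 35.1 CPM (log2 fold change -0.84, SE 0.08, adjusted p = 5.89e-06, edgeR). Cacna1g, the Cav alpha1 gene with the highest CPM, was at 120 and 118 CPM against 99.97 and 105 CPM and did not pass (log2 fold change -0.22, SE 0.15, adjusted p = 0.295, edgeR). It did pass, at nearly the same fold change, in a fit without either forebrain knockout library (adjusted p = 0.0179 without replicate 1 and 0.0182 without replicate 2, edgeR) and in a fit of the 4 wild-type libraries alone (0.0215). With all libraries kept, Cacna1g also passed without the filter on low counts (log2 fold change -0.21, adjusted p = 0.0243, edgeR). The L-type genes differed in their calls, with Cacna1d at a log2 fold change of -0.97 (adjusted p = 0.0274, edgeR) and Cacna1c at 0.24 (adjusted p = 0.272, edgeR).

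Among the Cav auxiliary subunits 7 of 13 fell and 2 rose, so 69.2% were called, against 29.6% of all genes. Cacna2d3, an alpha2delta subunit that brings the pore to the surface, was at 21.5 and 18.1 CPM in wild-type midbrain against 2.71 and 1.70 CPM in wild-type forebrain (log2 fold change -3.15, SE 0.22, adjusted p = 3.18e-07, edgeR). The 8.97-fold difference of Cacna2d3 stood beside a much smaller one in its relative Cacna2d1, at -0.46 on the log2 scale (SE 0.11), and Cacna2d2 did not pass (log2 fold change -0.11, adjusted p = 0.583, edgeR). The gamma subunits, of which several are better known as partners of AMPA-type glutamate receptors, went both ways. Cacng2 was at 6.58 and 6.31 CPM against 1.15 and 0.929 CPM (log2 fold change -2.61, SE 0.29, adjusted p = 2.3e-05, edgeR). Cacng4, the family member with the highest CPM, was at 156 and 149 CPM against 127 and 116 CPM (log2 fold change -0.33, SE 0.07, adjusted p = 0.00278, edgeR). Cacng8 rose from 4.81 and 5.75 CPM to 8.96 and 8.36 CPM (log2 fold change 0.72, SE 0.19, adjusted p = 0.0122, edgeR), and did not pass without midbrain wild-type replicate 1 (0.119) or forebrain wild-type replicate 1 (0.0715). Cacng7 rose by little, from 56.3 and 58.2 CPM to 70.7 and 65.2 CPM (log2 fold change 0.25, SE 0.08, adjusted p = 0.03, edgeR).

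The 2 knockout groups gave a second set of forebrain and midbrain libraries, in which genotype and tissue differ together. There 58 of 97 channel genes (59.8%) passed in edgeR, against 29.4% of all genes. In forebrain, 11 were higher, against 14.6% of all genes, and 47 were lower, against 14.8% of all genes. The libraries did not overlap in 80 of the 97 genes (82.5%), against 64.4% of all genes. The median log2 fold change of the channel genes was -0.67. The number higher was 7 when either midbrain knockout library was left out. Both comparisons called 51 genes, which is 91.1% of the wild-type calls and 87.9% of the calls in knockout libraries, and all 51 had the same direction in both. Of the 56 genes called in wild type, 54 had knockout libraries that did not overlap and lay on the same side. Both comparisons came from 1 fit with a shared estimate of the spread of each gene, so their calls are not independent. The matching shares over all genes were not taken, so this repeat is not shown to be particular to channel genes. Neuron markers were lower here in 14 of 14, with a median log2 fold change of -0.997.

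Kcnk9 had 104 and 74 counts in knockout midbrain and 0 and 2 in knockout forebrain, a ratio of 140.9 with a counting interval of 38.4 to 1170. Cacna2d3 was at 20.0 and 24.7 CPM in knockout midbrain against 2.78 and 2.55 CPM in knockout forebrain. In both genes the knockout groups did not overlap, as in wild type. The 5 genes called in wild type only were Cacna1d, Cacng7, Kcnh5, Kcnj10 and Kcnj2. Of these, Kcnh5 and Kcnj10 moved most, with log2 fold changes of -1.15 and 0.71 in wild type and 0.56 and 0.02 in the knockout libraries. The 7 genes called in the knockout libraries only were Cacna1g, Cacnb2, Cacng3, Kcna6, Kcnh1, Kcnh8 and Kcnip1. Whether a tissue difference itself changed between the sets is the same test as that of the difference between the knockout effects, and edgeR called 0 of these genes there.

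**Figure D4:**
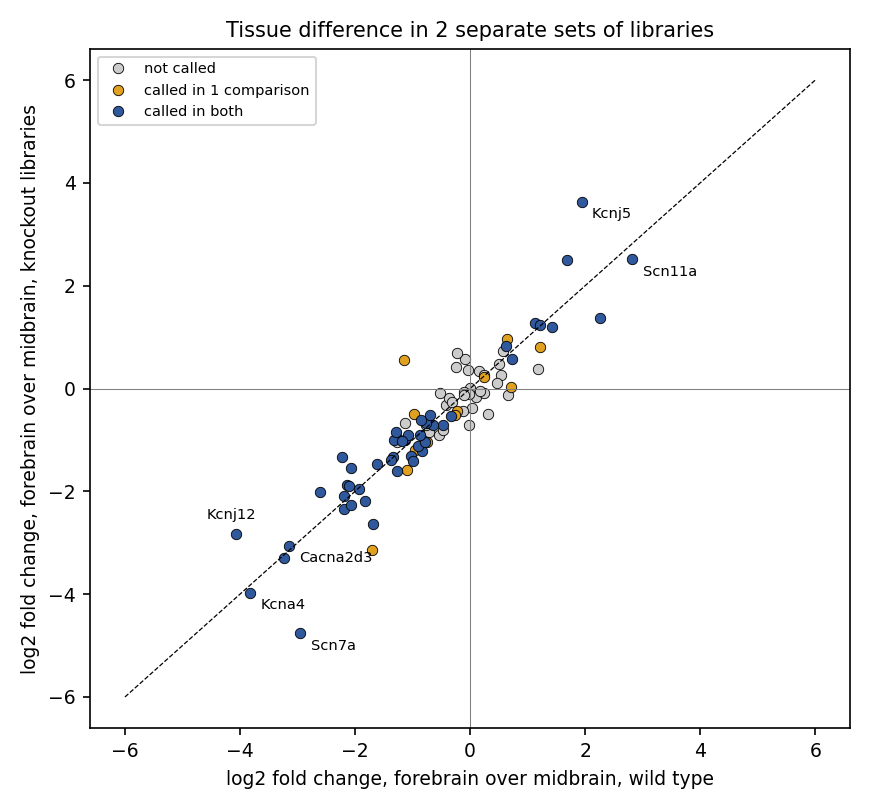
Log2 fold change of forebrain over midbrain in the wild-type libraries (horizontal axis) and in the knockout libraries (vertical axis) for 93 channel genes; Kcnk9 is left out because its fitted value rests on libraries without a count. Blue points were called in both comparisons, orange points in 1 and grey points in neither, and the dashed line marks equal values; Scn11a lies at the upper right at 2.82 and 2.51.

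The second comparison asked whether loss of the hs654 enhancer changed channel genes in midbrain. No gene passed the test: edgeR called 0 of 97 channel genes and 0% of all genes, and DESeq2 and limma-voom also called 0 channel genes. At an unadjusted p of 0.05, 7 of 97 passed in edgeR, against 3.96% of all genes. The fold change was positive in 65 of 97 genes (67.0%) and in 49.7% of all genes, with a median of 0.10. Knockout and wild-type libraries did not overlap in 49 genes (50.5%), against 36.7% of all genes, and in 35 of the 97 the knockout was the higher group, against 17.9% of all genes. The median of the neuron markers in the same contrast was 0.11, and its part in the channel values was not tested.

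The gene with the smallest p in the hs654 comparison was Kcnh5, a slowly opening Kv subunit. It was at 2.53 and 3.27 CPM in wild-type midbrain and 1.03 and 1.20 CPM in knockout midbrain, without overlap (log2 fold change -1.37, SE 0.40, unadjusted p = 0.00435 and adjusted p = 0.992 in edgeR). Kcnn4, a calcium-activated channel known from blood cells, was at 3.42 and 2.00 CPM against 1.29 and 1.20 CPM (log2 fold change -1.13, unadjusted p = 0.0172 in edgeR). The 10 erythroid markers summed to 6959 and 3695 CPM in wild-type midbrain and to 3910 and 3447 CPM in knockout midbrain, with a median log2 fold change of -0.48. Wild-type replicate 1 was the highest midbrain library in both Kcnn4 and this sum, and the part of blood cells in the Kcnn4 values was not tested. Scn4b went up in value, at 0.316 and 0.24 CPM against 1.12 and 0.655 CPM (log2 fold change 1.65, unadjusted p = 0.0207 in edgeR). None of the 3 passed the adjusted threshold under any alternative tried.

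The third comparison asked the same of the hs267-853 knockout in forebrain. Again edgeR called 0 of 97 channel genes, against 0.013% of all genes, and DESeq2 and limma-voom called 0. At an unadjusted p of 0.05, 3 of 97 passed in edgeR, against 4.78% of all genes, and the median log2 fold change was 0.04. Libraries did not overlap in 29 of 97 genes (29.9%), against 31.1% of all genes. Kcnh4, an Elk-type Kv subunit, was at 4.07 and 3.33 CPM against 5.90 and 5.04 CPM (log2 fold change 0.56, unadjusted p = 0.02 in edgeR). Cacna1h was at 36.5 and 35.1 CPM against 32.0 and 30.3 CPM (log2 fold change -0.20, unadjusted p = 0.0328 in edgeR).

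In Cacna1g the 2 forebrain knockout libraries differed from each other, and the call depended on which was used. The gene was at 74.3 CPM in replicate 1, the library that stands apart, at 117 CPM in replicate 2, and at 99.97 and 105 CPM in wild type. Without replicate 2, it was the 1 channel gene called in the hs267-853 comparison (log2 fold change -0.46, SE 0.08, adjusted p = 0.00891, edgeR), with the lone replicate 1 assumed to vary like the other groups. In that fit Cacna1g was also the 1 channel gene called in the difference of the knockout effects (midbrain minus forebrain, 0.59 on the log2 scale, adjusted p = 0.0243, edgeR). With both libraries its fold change in forebrain was -0.10 (SE 0.15), and no channel gene was called without replicate 1.

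Tested directly, the difference between the 2 knockout effects (midbrain minus forebrain) was called in 0 of 97 channel genes by edgeR, against 0.0065% of all genes, and in 0 by DESeq2 and limma-voom. In edgeR 5 of 97 passed an unadjusted p of 0.05, against 4.02% of all genes. A missed threshold does not show equal levels. The 95% interval of the knockout effect lay within 1.5-fold either way in 33 of 97 channel genes for hs654 and in 34 for hs267-853, and within 2-fold in 59 and 58. For Scn3a it ran from -0.15 to 0.17 on the log2 scale in midbrain and from -0.19 to 0.17 in forebrain. For Kcnk5 it ran from -0.15 to 0.55 in midbrain and from -0.32 to 0.26 in forebrain.

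**Figure D5:**
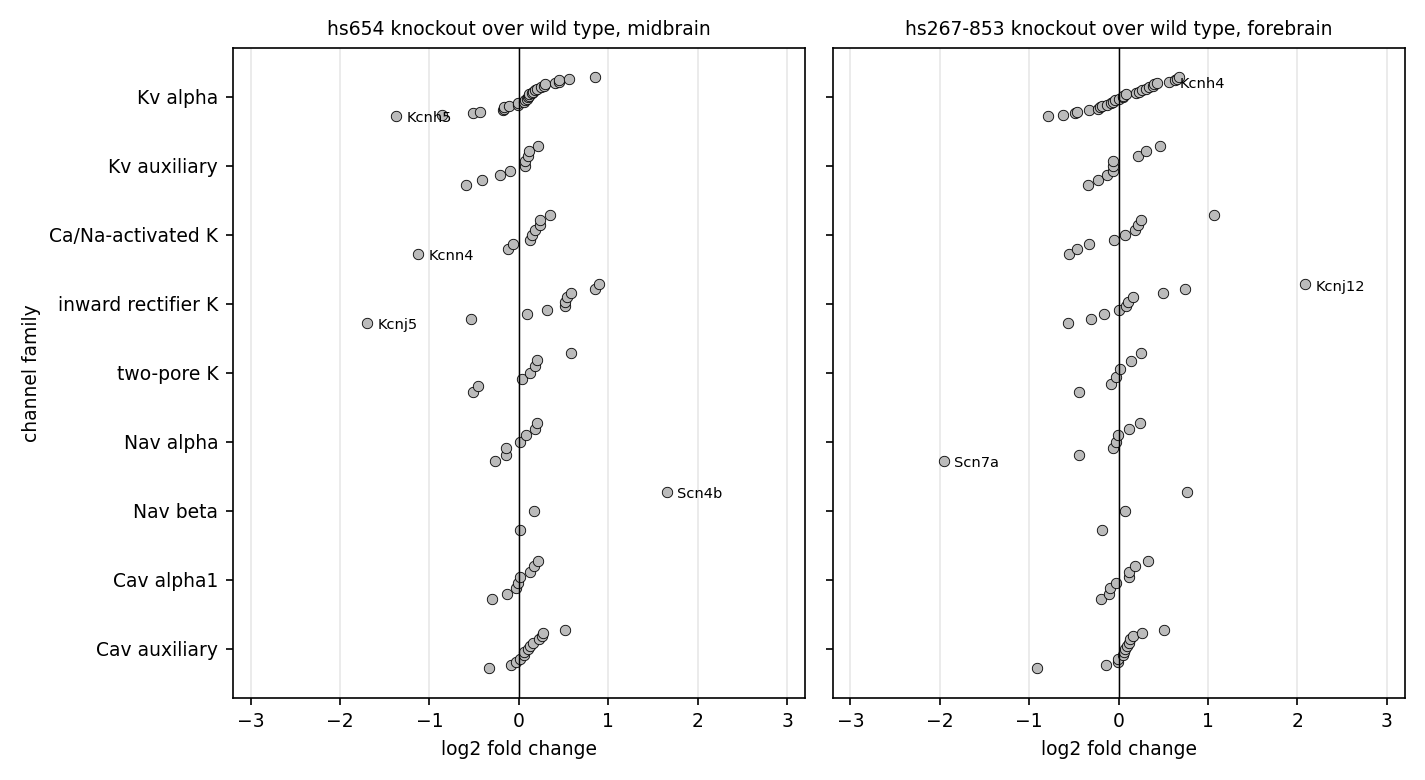
Log2 fold change of knockout over wild type (horizontal axes) by channel family (vertical axis), for hs654 in midbrain (left, 94 genes) and hs267-853 in forebrain (right, 93 genes, without Kcnk9). All points are grey because none passed the test; the genes far from 0, such as Scn7a and Kcnj12 in forebrain, are ones with few counts.

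Genes that work with these channels were read from a list of 48 partners, of which 42 were tested. In wild type 24 of the 42 were lower in forebrain and 2 were higher, and in the knockout libraries 21 were lower and 2 higher. Of all genes, 15.3% were lower and 14.3% higher in wild type, and 14.8% and 14.6% in the knockout libraries. Ank3, the scaffold that gathers sodium channels and Kcnq3 at the axon's initial segment, was at 174 and 173 CPM in wild-type midbrain against 76.6 and 62.1 CPM in wild-type forebrain (log2 fold change -1.32, adjusted p = 4.61e-07, edgeR). Nalcn, a sodium leak channel, had a log2 fold change of -1.40 and Dpp6, a partner of the A-type Kv channels, one of -1.39. The 2 that rose were Cntnap2, which clusters Shaker-type channels on axons, at 66.6 and 65.7 CPM against 192 and 199 CPM (log2 fold change 1.56, adjusted p = 1.99e-09, edgeR), and Gem, an inhibitor of calcium channels, at 0.51. Rest, a repressor of neuronal genes including sodium channels, was at 38.1 and 36.4 CPM in midbrain against 47.0 and 52.6 CPM in forebrain (log2 fold change 0.42, adjusted p = 0.00677, edgeR). Of its partners, Rcor1 was higher too (log2 fold change 0.25, adjusted p = 0.0162, edgeR) and Rcor2 did not pass (0.04). In the knockout libraries Rcor1 was the 1 of these 3 that passed.

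Many channel genes lie side by side on a chromosome: 35 of the 133 fell into 15 groups whose members were at most 100 kb apart in RefSeq (GRCm38.p6, the mm10 assembly). In 5 groups 2 or more members were called in wild type, and in 4 of these they had the same direction. For example, on chromosome 2, Scn3a and its neighbour Scn2a both fell, and so did Scn9a and Scn7a, which lie beside Scn1a, the gene that did not pass. On chromosome 7, Cacng7 and Cacng8 both rose. The group with opposite calls was Kcna3, which rose, and Kcna2, which fell, on chromosome 3. Of all 56 channel genes called in wild type 43 were lower, so a shared direction is common among them wherever they lie. Whether neighbours share it more often than other channel genes was not tested. The authors' counts may share reads where genes overlap, and 15 of the 133 overlap a protein-coding gene, Cacna1d, Cacna1h, Cacna2d3, Cacnb1 and Kcnab2 among them.

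RefSeq gave the 250 bases before a transcript start for 98 of the 133 channel genes. They are shown for 4 genes that moved in opposite directions within or between families and whose window lies outside the gene, 5' to 3' on the gene's own strand. They are Scn11a (chr9:119825457-119825706, minus strand), Scn7a (chr2:66784911-66785160, minus strand), Kcnk5 (chr14:20181783-20182032, minus strand) and Kcna4 (chr2:107290339-107290588, plus strand). Capitals mark matches, on either strand, to a GC box (GGGCGG), a proneural E-box (CAGATG) or a homeobox core (TAATTA).
Scn11a: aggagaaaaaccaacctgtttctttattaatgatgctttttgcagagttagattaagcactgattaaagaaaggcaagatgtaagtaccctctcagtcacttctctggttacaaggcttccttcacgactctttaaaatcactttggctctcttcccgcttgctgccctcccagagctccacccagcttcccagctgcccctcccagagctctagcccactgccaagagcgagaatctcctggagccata
Scn7a: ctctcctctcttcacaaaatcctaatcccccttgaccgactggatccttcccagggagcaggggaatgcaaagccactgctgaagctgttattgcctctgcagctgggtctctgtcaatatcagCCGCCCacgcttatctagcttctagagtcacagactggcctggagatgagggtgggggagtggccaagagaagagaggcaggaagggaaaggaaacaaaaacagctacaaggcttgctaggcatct
Kcnk5: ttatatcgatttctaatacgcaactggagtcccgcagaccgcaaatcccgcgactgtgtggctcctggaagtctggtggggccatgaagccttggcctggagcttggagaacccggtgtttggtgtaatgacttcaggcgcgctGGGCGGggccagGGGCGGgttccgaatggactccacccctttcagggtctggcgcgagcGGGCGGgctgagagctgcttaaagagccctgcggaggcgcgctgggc
Kcna4: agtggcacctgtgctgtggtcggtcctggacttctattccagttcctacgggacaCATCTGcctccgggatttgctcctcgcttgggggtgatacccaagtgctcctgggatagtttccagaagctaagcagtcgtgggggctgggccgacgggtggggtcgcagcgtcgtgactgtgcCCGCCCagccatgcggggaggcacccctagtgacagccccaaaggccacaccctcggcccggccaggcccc
Scn11a, higher in forebrain, held no match and 3 CpG, and Kcnk5, also higher, held 3 GC boxes and 19 CpG. Scn7a, lower in forebrain, held 1 GC box and 3 CpG, and Kcna4, also lower, held 1 GC box, 1 E-box and 14 CpG. A GC box was found in 57.1% of the 98 channel genes and in 35.4% of all 27025 genes with a window, counting a gene when any of its windows matched. Counted by window, it was in 42.5% of the 134 channel windows and in 32.7% of all 32851 windows. Channel windows also held more G and C, at a median of 58.0% against 52.4%. Among channel genes a GC box was found in 58.3% of those higher in forebrain, 61.3% of those lower and 59.3% of those tested and not called. The E-box was found in 16.3% of channel genes and 16.3% of all genes, and the homeobox core in 0 of 98 channel genes and 5.65% of all genes. Such matches describe the letters only, and motifs may also lie outside these windows.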

How the data were processed

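RNA-seq was available for 8 pooled libraries. The deposited values are raw counts per gene. The authors' tools were STAR, HTSeq and DESeq2 with the mm10 build, per the submitters' processing notes; versions, annotation and strand setting are not given in the sources used here. Without strand information, reads of a channel gene and an overlapping or antisense gene cannot be told apart.

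Counts were fitted with edgeR 4.0.16 (R 4.3.3) over all 8 libraries with 1 mean per group: filterByExpr, TMM scaling, glmQLFit and glmQLFTest, two-sided. P-values were adjusted by the Benjamini-Hochberg method across all 15383 tested genes, and 0.05 was the threshold. The biological coefficient of variation was 7.62%. In 1 set of simulated counts of the wild-type tissue comparison, 197 of 15147 genes tested were changed. The fit recovered 89.9% of 4-fold, 76.7% of 2-fold and 48.5% of 1.5-fold changes. Of 156 calls 15 were false, a larger share than the 0.05 aimed at, and a comparison without change gave 1 call. In the real comparison 29.6% of genes were called, a far larger share than was changed here, so these rates do not carry over to it. Replicates differed beyond counting noise (chi-square per degree of freedom of 3.75 to 7.74). Total counts were 9051632 to 18024406.

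Channel genes, families and marker lists were chosen with earlier results of these data known. Named in the text are the 12 genes with the largest rise and the 12 with the largest fall among genes called in wild type with at least 1 CPM in the higher group and no overlap, the 3 genes with the smallest p in each knockout comparison, and the gene with the highest CPM per family. Some of these are not reported here or drawn in the plots. Others named, such as Scn1a, Scn2a, Scn8a, Kcna2, Kcnma1, Kcnj3, Kcnj12, Cacng7 and the Cav alpha1 genes, were chosen after their values were seen. Alternatives were RLE and upper-quartile scaling, 2 other filters, DESeq2 1.42.0, limma-voom (limma 3.58.1), a minimum change of 1.5-fold, a replicate block, the 4 libraries of a comparison alone, and each library left out.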

Additional observations from a re-analysis of the deposited data

How the results depend on the processing

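Under RLE and upper-quartile scaling the median over all genes moved by less than 0.1. The wild-type count of 13 channel genes higher in forebrain was 8 with a mean of at least 50 counts and 4 with a minimum change of 1.5-fold, and 6 to 15 with each library left out. The count of 43 lower was 27 with the minimum change and 37 to 49 with each library left out. In the knockout libraries 11 higher became 6 with the mean of at least 50 counts, 5 with the minimum change and 7 to 12 with each library left out, and 47 lower became 26 with the minimum change and 36 to 48 with each library left out. The hs654 count was 0 under every alternative tried, and the hs267-853 count and the count of the difference were 0 under every alternative except without forebrain knockout replicate 2, where both were 1 (0 to 1 with each library left out). The minimum change asks a stricter question, and the filter tests fewer genes. A fit without 1 library has less power in all genes. The shares of all genes called under these settings are not given here, so the drops are not shown to be particular to channel genes.

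For the genes named by rule, no fold change reversed; 581 values kept their side of the threshold, 45 no longer passed and 4 came to pass. Replicate numbers did not pair the libraries: deviations of libraries with the same number correlated at -0.0255 to 0.067. With a replicate block the counts were 12 and 43 in wild type, 11 and 46 in the knockout libraries and 0 in both knockout comparisons and in their difference, and of the genes named by rule only Kcna3 lost its call (adjusted p = 0.0547, edgeR). With 2 pools per group and 9051632 to 18024406 counts, small differences and genes near the 3-count floor were not resolved.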

Other observations

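Other cell types were read from marker lists in the same contrasts. Erythroid markers, 10 tested, were lower in wild-type forebrain in 1 case and higher in 0. Of 9 mesenchyme markers 4 were higher in wild-type forebrain, of 8 endothelium markers 1 was higher, and of 8 pericyte and smooth muscle markers 2 were higher and 3 lower. Among retina and pigment epithelium markers 2 of 4 tested were higher in wild-type forebrain and 1 lower, with Rpe65 at 0 in all libraries. Their sums were 14.2 to 15.5 CPM in wild-type forebrain and 5.00 to 6.07 CPM in wild-type midbrain. Of 5 choroid plexus markers 2 were higher in wild-type forebrain and 1 lower, with a median log2 fold change of 0.717. Their summed level went the other way, at 85.04 and 90.71 CPM against 294.3 and 269.5 CPM in wild-type midbrain. A sum follows the genes with the most counts, so it does not speak for the list. No marker of any list was called in either knockout comparison by edgeR. The part of these cells in the channel differences was not tested.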
